A study of Mus musculus with 9 samples.

Results

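The CXC chemokines and their receptors were examined in skin from the ulcers of rats. The set was given by gene name and held 10 genes, of the 28370 features that remained after features of the same name were summed. The 7 ligands were Cxcl1, Cxcl2, Cxcl9, Cxcl10, Cxcl12, Cxcl14 and Cxcl16, and the 3 receptors were Cxcr3, Cxcr4 and Ackr3. Each gene stood in the table once, and all 10 reached 0.5 FPKM in at least 3 libraries and so were among the 15600 features tested. FPKM is the number of RNA fragments of a gene scaled by its length and by the size of the library, so levels can be compared between genes. Groups had 3 libraries each, which the labels number as biological replicates. The p-values set the differences between groups against the spread between these samples within groups. The labels do not say whether a replicate is a single animal or a pool. The non-diabetic rats carried ulcers without diabetes and had saline injected into the wound. The diabetic rats carried diabetic ulcers and had the same volume of saline. The third group carried diabetic ulcers and received platelet-rich plasma (PRP), a concentrate of platelets in plasma. Each injection was 0.5 ml and was given on days 1, 7, 14 and 21, and every wound was dressed in the same way. Tissue was taken on day 21, which was also a day of injection. How diabetes was induced, and the strain, sex and age of the rats, are not given in the sources used here.

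Chemokines are small secreted proteins that bind receptors coupled to inhibitory G proteins and draw cells along a gradient. CXC chemokines carry 1 residue between the first pair of conserved cysteines. Those with an ELR motif, such as Cxcl1 and Cxcl2, bind Cxcr2 and recruit neutrophils to a fresh wound. Cxcl9, Cxcl10 and Cxcl11 are induced by interferon gamma and bind Cxcr3 on activated T cells and NK cells. Cxcl12 is made by fibroblasts and other stromal cells, and it binds Cxcr4, which signals, and Ackr3, which takes up the ligand and sends it for degradation. Cxcl14 is made by skin epithelium without inflammation, and Cxcl16 is made as a membrane protein that is shed by proteases and bound by Cxcr6.

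The tissue label was checked against markers of skin. Krt5, a keratin of basal keratinocytes, lay between 40.8 and 2499 FPKM in the 9 libraries, and Col1a1, a collagen of fibroblasts, lay between 587 and 4381 FPKM. The FPKM table gives no read depth. Its totals lay between 564078 and 728332, and the PRP totals (702718 to 728332) lay above those of all other libraries (at most 676150). Between 19219 and 21294 features were above 0, with the non-diabetic libraries (19219 to 19487) below all others (at least 19844). The counts of 81 lncRNA genes put the relative depth of the libraries between 0.836 and 1.11. This depth was 1.05 to 1.11 in PRP and 0.945 to 1.01 in diabetic libraries. In non-diabetic replicates 1, 2 and 3 it was 0.910, 1.06 and 0.836. The first principal component of the tested features held 56.6% of the variance and placed non-diabetic replicate 2 at -1.90, within the range of the PRP libraries (-10.3 to 32.6), whereas replicates 1 and 3 of that group had scores of -67.9 and -94.9 and the diabetic libraries scored 12.5 to 66.8. Summed markers of 3 further tissue parts varied between libraries and between groups. Hair follicle markers summed to 8.57 to 1983 FPKM in non-diabetic, 448 to 5859 in diabetic and 620 to 2431 in PRP libraries. The sums were 172 to 3078, 2744 to 10948 and 2867 to 4168 FPKM for skeletal muscle markers, and 3.27 to 24.3, 50.4 to 172 and 8.91 to 33.4 FPKM for melanocyte markers. Of the 5 melanocyte markers, 3 (Dct, Tyrp1 and Tyr) rose in diabetic against non-diabetic ulcers, beside 1.79% of all features. All 10 hair follicle and all 6 skeletal muscle markers had a log2 change above 0 in that comparison, and 0 of them passed. In bulk tissue, fewer cells of a type and less RNA per cell cannot be told apart.

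Among the 10 genes, Cxcl12 had the highest mean over the 9 libraries, 124 FPKM, which was above 97.4% of the features tested. Ackr3, Cxcl2 and Cxcl14 followed at 40.7, 39.4 and 39.1 FPKM. Cxcl16, Cxcl1 and Cxcr4 had means of 26.3, 16.8 and 15.6 FPKM. Cxcl9, Cxcl10 and Cxcr3 were lower, at 3.89, 1.66 and 0.788 FPKM. Cxcl12 ranked first or second among the 10 in every library. Cxcl2 was first in non-diabetic replicate 3 and PRP replicate 2, and Cxcl14 was first in diabetic replicates 2 and 3. Neighbours in this order overlapped over the 9 libraries: Ackr3 ranged from 11.5 to 84.0 FPKM, Cxcl14 from 8.25 to 62.4 FPKM and Cxcl16 from 14.5 to 48.5 FPKM. Cxcl2 had the widest range of the 10, from 0.0848 to 207 FPKM.

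**Figure D1:**
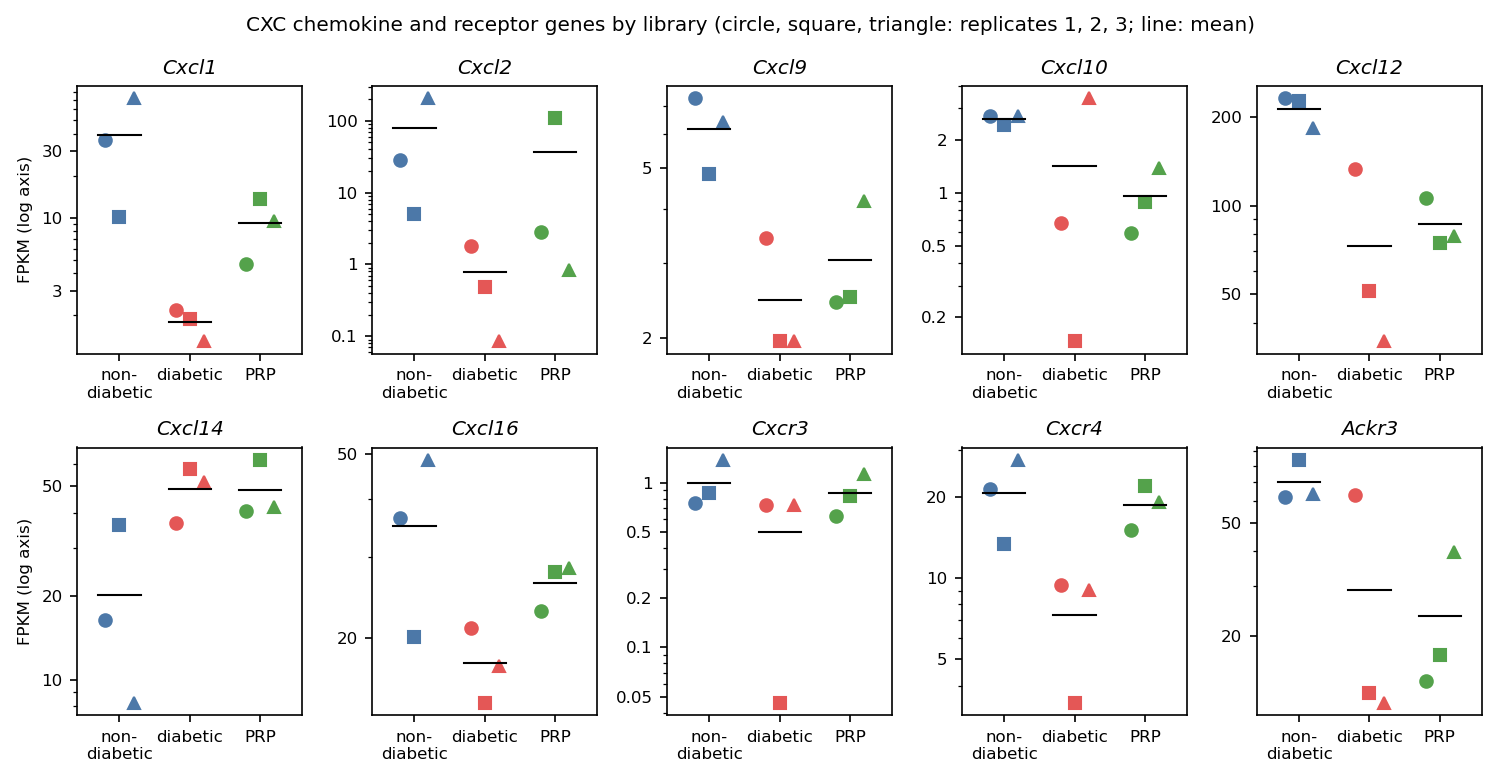
FPKM (log axis) of the 10 CXC chemokine and receptor genes in each of the 9 libraries, with non-diabetic in blue, diabetic in red and PRP in green. Symbols give replicates 1, 2 and 3 and the line is the arithmetic mean of the group. Cxcl1 in the 3 diabetic libraries (1.30 to 2.18 FPKM) lies below all other libraries, and Cxcl12 in the 3 non-diabetic libraries (183 to 232 FPKM) lies above all others.

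The diabetic ulcers were compared with the non-diabetic ulcers, both under saline. Cxcl1, Cxcl9, Cxcl12 and Cxcr4 fell in diabetic ulcers, and 0 of the 10 genes rose. These 4 stand beside 8.95% of all features called in this comparison, at an adjusted p under 0.05, of which 7.16% were lower. The groups did not overlap for 7 of the 10 genes, 6 lower and 1 higher, beside 34.1% of all features (19.6% lower and 14.4% higher). The median log2 change of the 10 genes was -1.25, and that of all features tested was 0.04. All changes are on the scale of log2(FPKM + 1), which understates the change of genes at low levels. The count of 4 rested on the full set of libraries. Leaving out any of 6 libraries gave a count of 0: replicates 1 and 3 of the non-diabetic, 2 and 3 of the diabetic and 1 and 2 of the PRP group. The count was 1 (Cxcl1) when PRP replicate 3 was dropped, 5 when diabetic replicate 1 was dropped and 7 when non-diabetic replicate 2 was dropped. It was also 0 with no filter on low values or with only the 6 libraries compared in the fit, and 1 with size factors. PRP libraries enter because the 3 groups share 1 estimate of the spread.

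**Figure D2:**
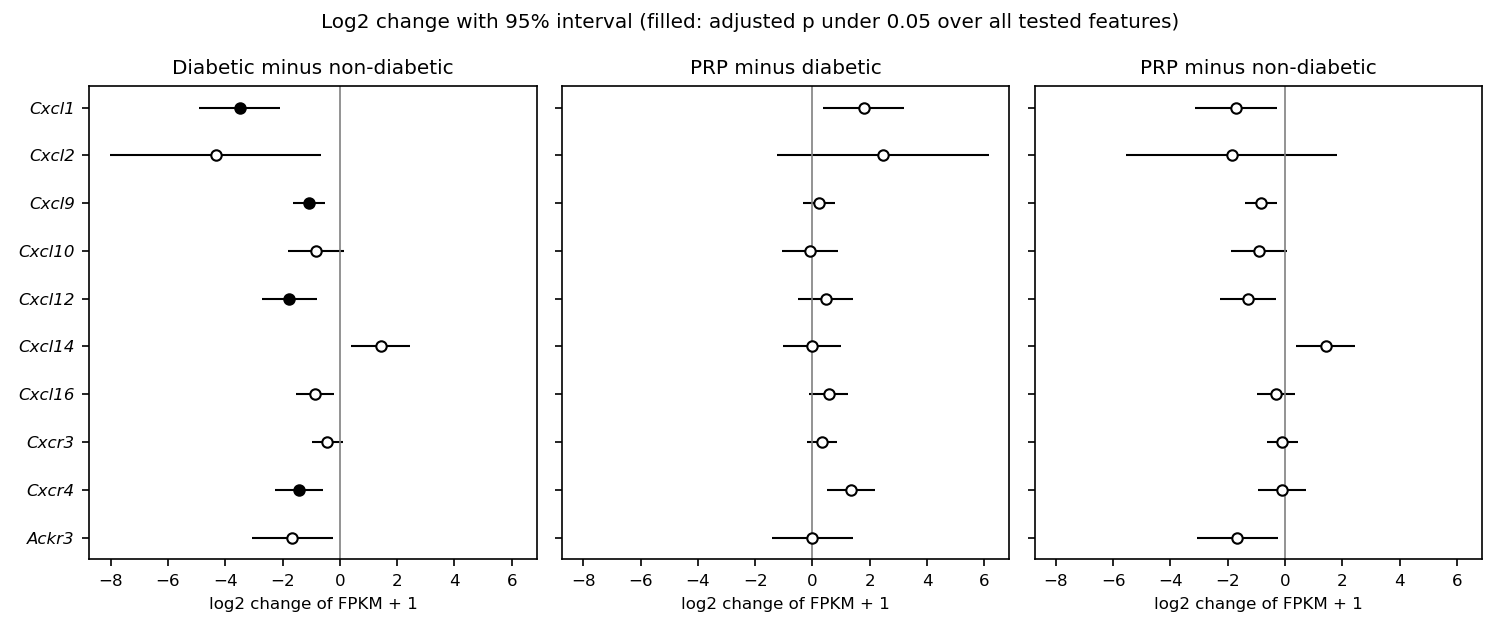
Log2 change of each of the 10 genes with its 95% confidence interval (horizontal axis, log2(FPKM + 1) scale) in the comparisons of diabetic with non-diabetic, PRP with diabetic and PRP with non-diabetic ulcers, where filled points passed the test. Cxcl1 has a change of -3.50 in the first and 1.78 in the second comparison, and Cxcl14 is the 1 gene with a change above 0 in the first (1.43).

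The ELR chemokines that recruit neutrophils had their lowest means in diabetic ulcers. Cxcl1 (ENSRNOG00000002802, chr14:17193365-17195215) was at 36.2, 10.2 and 72.1 FPKM in non-diabetic, 2.18, 1.89 and 1.30 in diabetic and 4.63, 13.6 and 9.47 in PRP libraries. All 3 diabetic libraries lay below both other groups, and non-diabetic replicate 2 lay within the range of PRP. The mean was 39.5 ± 31.1 FPKM (SD, n = 3) in non-diabetic and 1.79 ± 0.446 in diabetic ulcers, and Cxcl1 fell by 3.50 on the log2 scale (SE 0.62, adjusted p = 0.0308). The log2 change was -4.24 without non-diabetic replicate 2 and -2.02 with replicates 1 and 3 left out together, where it no longer passed (adjusted p = 0.755).

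Cxcl2 (ENSRNOG00000002792, chr14:17181062-17183075) was at 28.6, 5.04 and 207 FPKM in non-diabetic, 1.78, 0.489 and 0.0848 in diabetic and 2.82, 108 and 0.836 in PRP libraries. It was above 100 FPKM in non-diabetic replicate 3 and PRP replicate 2, and the diabetic libraries lay below all 3 non-diabetic ones. With this spread, the log2 change of -4.34 between diabetic and non-diabetic ulcers (SE 1.62) did not pass the threshold (adjusted p = 0.102), but it passed without non-diabetic replicate 2. Cxcl2 and Cxcl1 lie in 1 cluster of CXC genes on chromosome 14 with Cxcl3, Pf4, Ppbp and Cxcl6, from base 17181062 to 17313093. The genes of this cluster that resemble each other may have shared reads, so the division among Cxcl1, Cxcl2 and Cxcl3 is uncertain.

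Cxcl3, Cxcl6 and their receptor Cxcr2 were also highest in non-diabetic replicate 3. Cxcl3, a close relative of Cxcl2, was at 3.84, 0.234 and 39.2 FPKM in non-diabetic, 0, 0.0992 and 0 in diabetic and 0.473, 7.70 and 0.191 in PRP libraries. Cxcl6, an ELR ligand of the same cluster, was at 15.5, 0.136 and 38.2 FPKM in non-diabetic libraries, at or below 0.103 in diabetic libraries and at 0.188, 3.46 and 0.343 in PRP libraries. Cxcr2, the receptor of these ligands, was at 4.14, 0.699 and 14.6 FPKM in non-diabetic, 0.524, 0.499 and 0.832 in diabetic and 0.593, 3.48 and 0.728 in PRP libraries. None of the 3 passed between diabetic and non-diabetic ulcers, with adjusted p of 0.155 for Cxcl3, 0.0986 for Cxcl6 and 0.138 for Cxcr2. All 3 passed without non-diabetic replicate 2. Ppbp, the precursor of a platelet ELR chemokine, was listed at 0 in all 3 diabetic libraries, in non-diabetic replicate 2 and in PRP replicates 1 and 3, and its highest value was 0.583 FPKM, in PRP replicate 2, and Cxcr1 was at or below 0.0846 FPKM in every library. Both were below the level required for testing. Cxcl5 was not analysed here.

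The 12 genes listed as neutrophil markers summed to 1502, 67.6 and 706 FPKM in non-diabetic, 92.1, 64.3 and 353 in diabetic and 275, 6056 and 937 in PRP libraries. PRP replicate 2 had the highest sum, and non-diabetic replicate 3, the library with the most Cxcl2, ranked below PRP replicates 2 and 3 and non-diabetic replicate 1. Of the 12 markers, 8 were tested, and 7 of these had a lower mean level on the log scale in diabetic than non-diabetic ulcers. Of the 7, only Clec4d fell, beside 7.16% of all features. The other tested gene of the list, Ly6g6c, is not the neutrophil gene Ly6g, so its place among these markers is uncertain. Its log2 change was 1.87 (adjusted p = 0.0745), and it did not pass. Which cells the listed transcripts came from was not tested. Mpo, Ngp, Camp, Fpr1 and Fpr2 were at 0 in at least 1 library. The part of neutrophil content in the Cxcl1 and Cxcl2 values was not tested.

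The ligands of Cxcr3 differed among themselves. Cxcl9 (ENSRNOG00000022242, chr14:15722908-15728435) was at 7.29, 4.84 and 6.41 FPKM in non-diabetic, 3.42, 1.96 and 1.97 in diabetic and 2.43, 2.49 and 4.19 in PRP libraries. All non-diabetic libraries lay above the other 6. The mean was 6.18 ± 1.24 FPKM in non-diabetic and 2.45 ± 0.842 in diabetic ulcers, and Cxcl9 fell by 1.07 on the log2 scale (SE 0.24, adjusted p = 0.0399). The log2 change was -1.21 without non-diabetic replicate 2 and -0.78 with replicates 1 and 3 left out (adjusted p = 0.755).

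Cxcl10 (ENSRNOG00000022256, chr14:15704758-15706975) was at 2.73, 2.40 and 2.71 FPKM in non-diabetic, 0.676, 0.145 and 3.42 in diabetic and 0.591, 0.892 and 1.38 in PRP libraries. Diabetic replicate 3 was the highest of the 9 libraries and diabetic replicate 2 the lowest. Its log2 change of -0.82 between diabetic and non-diabetic ulcers (SE 0.43) did not pass (adjusted p = 0.199). Cxcl11, the third ligand of Cxcr3, was also high in diabetic replicate 3, with 0.215, 0.0373 and 2.16 FPKM in the diabetic libraries, 1.97, 0.298 and 3.13 in non-diabetic and 0.268, 1.21 and 0.580 in PRP libraries. These 3 ligand genes lie in a second chromosome 14 cluster, from base 15689424 to 15728435. Cxcr3 (ENSRNOG00000003305, chrX:66844318-66846969) was at 0.750, 0.863 and 1.38 FPKM in non-diabetic, 0.729, 0.0459 and 0.730 in diabetic and 0.624, 0.834 and 1.13 in PRP libraries. It was above 0.6 FPKM in every library except diabetic replicate 2. The log2 change of Cxcr3 was -0.44 between diabetic and non-diabetic ulcers (SE 0.23, adjusted p = 0.209). Ifng, which encodes interferon gamma, was above 0 in 3 libraries only and reached 0.999 FPKM in diabetic replicate 1, so it was not tested.

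Cxcl12, Cxcr4 and Ackr3 form the axis of a stromal ligand, its signalling receptor and its scavenger. Cxcl12 (ENSRNOG00000013589, chr4:150388325-150401168) was at 232, 226 and 183 FPKM in non-diabetic, 133, 51.2 and 34.7 in diabetic and 107, 74.6 and 78.9 in PRP libraries. Every non-diabetic library lay above the other 6, and the diabetic and PRP libraries overlapped. The mean was 214 ± 26.6 FPKM in non-diabetic and 72.9 ± 52.7 in diabetic ulcers, and Cxcl12 fell by 1.76 on the log2 scale (SE 0.43, adjusted p = 0.0431). The log2 change was -1.72 without non-diabetic replicate 2 and -1.85 with replicates 1 and 3 left out, where it no longer passed (adjusted p = 0.755).

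Cxcr4 (ENSRNOG00000003866, chr13:40077976-40081883) was at 21.4, 13.4 and 27.6 FPKM in non-diabetic, 9.48, 3.45 and 9.03 in diabetic and 15.1, 22.0 and 19.2 in PRP libraries. The diabetic libraries lay below the other 6, and the non-diabetic and PRP libraries overlapped. The mean was 20.8 ± 7.13 FPKM in non-diabetic and 7.32 ± 3.36 in diabetic ulcers, and Cxcr4 fell by 1.43 on the log2 scale (SE 0.37, adjusted p = 0.0483). The log2 change was -1.71 without non-diabetic replicate 2 and -0.89 with replicates 1 and 3 left out (adjusted p = 0.780).

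Ackr3 (ENSRNOG00000019622, chr9:90799686-90811237) was at 61.9, 84.0 and 63.3 FPKM in non-diabetic, 62.8, 12.5 and 11.5 in diabetic and 13.8, 17.1 and 39.4 in PRP libraries. Diabetic replicate 1 lay at the level of the non-diabetic libraries, and the other two diabetic libraries lay below every other library. Its log2 change of -1.66 between diabetic and non-diabetic ulcers (SE 0.62) did not pass (adjusted p = 0.101) with all libraries, but passed without diabetic replicate 1.

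Markers of cells known to carry this axis also fell in diabetic ulcers in part. Fibroblast markers summed to 9116 to 11620 FPKM in non-diabetic, 1943 to 9587 in diabetic and 5907 to 12785 in PRP libraries, and 4 of 10 fell in diabetic ulcers, beside 7.16% of all features called lower. Endothelial markers summed to 176 to 293, 78 to 169 and 89.2 to 152 FPKM, and 2 of 8, Tie1 and Eng, fell. Markers of T and NK cells summed to 11.9 to 35.9, 2.61 to 10.1 and 11.7 to 19.8 FPKM, and 2 of the 9 tested, Cd8a and Cd8b, fell. The T cell receptor subunits Cd3d, Cd3e and Cd3g of that list had log2 changes of -0.23, -0.12 and 0.023 and did not pass. None of these 3 lists had a member that rose, and of the markers in these lists only Klrb1 was at 0 in any library. In the order of the 9 libraries, Cxcr4 and the summed T and NK cell markers placed 2 of 36 pairs of libraries the opposite way, the fewest for Cxcr4 among 10 marker lists. The same list was also the closest of the 10 for Cxcl1, Cxcl2 and Cxcl16. Cxcl12 and the summed fibroblast markers placed 14 of 36 pairs the opposite way. The part of these cells in the values of Cxcl12, Cxcr4 and Ackr3 was not tested.

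Cxcl14 was the 1 gene with a higher level in diabetic ulcers. Cxcl14 (ENSRNOG00000011984, chr17:8317933-8324839) was at 16.4, 36.1 and 8.25 FPKM in non-diabetic, 36.8, 57.9 and 51.6 in diabetic and 40.6, 62.4 and 42.0 in PRP libraries. All 6 libraries of diabetic rats lay above the 3 non-diabetic ones, though non-diabetic replicate 2 came within 1 FPKM of diabetic replicate 1. The log2 change of 1.43 between diabetic and non-diabetic ulcers (SE 0.45) did not pass (adjusted p = 0.0707), and it passed without non-diabetic replicate 2. The 9 keratinocyte markers in the table summed to 2913, 3421 and 204 FPKM in non-diabetic, 4156, 5235 and 6261 in diabetic and 5326, 10948 and 5328 in PRP libraries. The library with the lowest sum, non-diabetic replicate 3, had the least Cxcl14, and the library with the highest sum, PRP replicate 2, had the most. All 9 markers had a log2 change above 0 between diabetic and non-diabetic ulcers, and 0 of the 9 passed. Hair follicle and melanocyte markers, given above, also had higher levels in diabetic than non-diabetic ulcers. The part of keratinocyte, hair follicle or melanocyte content in the Cxcl14 values was not tested.

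Cxcl16 (ENSRNOG00000026647, chr10:55166723-55171592) was at 36.3, 20.1 and 48.5 FPKM in non-diabetic, 21.0, 14.5 and 17.4 in diabetic and 22.9, 27.9 and 28.4 in PRP libraries. The diabetic libraries lay below all PRP libraries, and non-diabetic replicate 2 lay within the diabetic range. The log2 change of -0.88 between diabetic and non-diabetic ulcers (SE 0.29) did not pass (adjusted p = 0.0819), but it passed without non-diabetic replicate 2. Cxcr6, its receptor on T cells, was at 1.34, 1.39 and 2.76 FPKM in non-diabetic, 0.641, 1.48 and 0.837 in diabetic and 1.67, 3.06 and 2.33 in PRP libraries (log2 change -0.50, adjusted p = 0.195). Macrophage markers, whose cells are a known source of Cxcl16, summed to 2028 to 2732 FPKM in non-diabetic, 306 to 1372 in diabetic and 877 to 1799 in PRP libraries. Of the 10 macrophage markers, 6 fell in diabetic ulcers and 0 rose, beside 7.16% and 1.79% of all features. None of these markers was at 0 in any library, and their part in the Cxcl16 values was not tested.

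**Figure D3:**
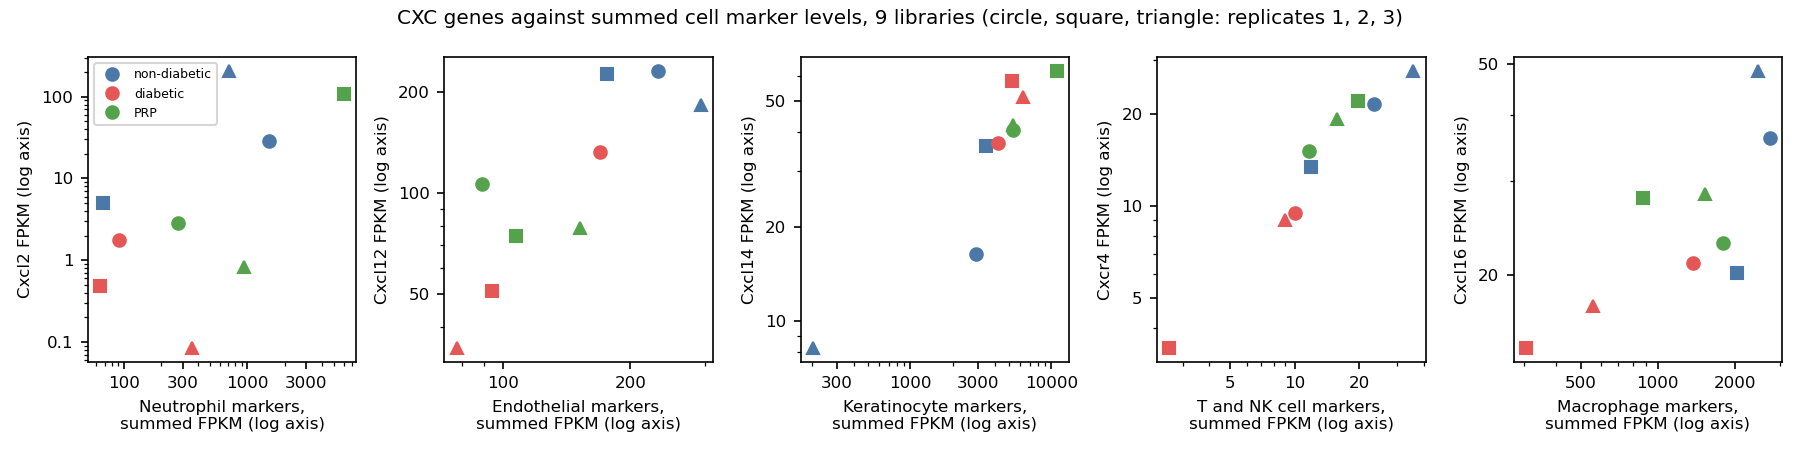
FPKM of Cxcl2, Cxcl12, Cxcl14, Cxcr4 and Cxcl16 (vertical, log axes) against the summed FPKM of neutrophil, endothelial, keratinocyte, T and NK cell, and macrophage markers (horizontal, log axes) in the 9 libraries, with non-diabetic in blue, diabetic in red and PRP in green and symbols for replicates 1, 2 and 3. Cxcr4 lies lowest in diabetic replicate 2 (3.45 FPKM), where the T and NK cell markers sum to 2.61 FPKM, and highest in non-diabetic replicate 3 (27.6 FPKM), where they sum to 35.9 FPKM.

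The mix of the 7 ligands, as shares of their summed FPKM, also varied by library. The sum was 359, 305 and 528 FPKM in non-diabetic, 199, 128 and 111 in diabetic and 180.5, 289.9 and 165 in PRP libraries. Cxcl14 took 4.56%, 11.8% and 1.56% of it in non-diabetic, 18.5%, 45.2% and 46.7% in diabetic and 22.5%, 21.5% and 25.4% in PRP libraries. Its share was thus above all non-diabetic libraries in each of the other 6. Cxcl12 took 64.5%, 74.2% and 34.7%, then 66.9%, 39.9% and 31.4%, then 59.0%, 25.7% and 47.8%, with overlap among the groups. The ratio of Cxcl12 to Cxcl14 was 14.2, 6.26 and 22.2 in non-diabetic, 3.61, 0.884 and 0.671 in diabetic and 2.63, 1.20 and 1.88 in PRP libraries. It was above 6 in the non-diabetic libraries and below 4 in the others. This gap follows from the levels of both genes given above and is not a separate result. Cxcl1 and Cxcl2 together took 52.9% in non-diabetic replicate 3 and 42.0% in PRP replicate 2, and at most 1.99% in any diabetic library.

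**Figure D4:**
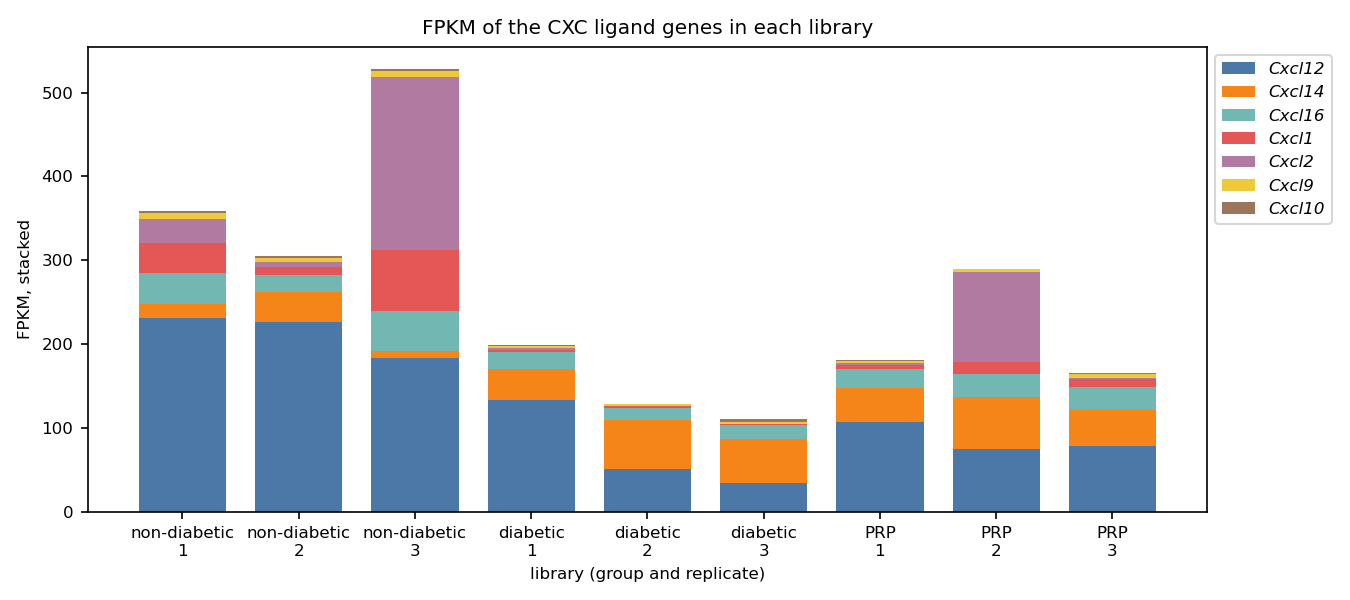
Summed FPKM of the 7 CXC ligands in each of the 9 libraries, as stacked bars that start at 0, with a colour for each ligand. The highest bar is non-diabetic replicate 3 (528 FPKM) and the lowest diabetic replicate 3 (111 FPKM), where Cxcl14 makes up 46.7%.

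The effect of PRP was examined by comparing PRP-treated with saline-treated diabetic ulcers. None of the 10 genes passed, beside 0% of all features. At an unadjusted p under 0.05, the counts were 2 of the 10 genes, Cxcl1 and Cxcr4, and 1021 of all features (6.54%). The log2 change was above 0 for 8 of the 10 genes, with a median of 0.40 beside -0.06 over all features. Cxcr4 had 18.8 ± 3.46 FPKM in PRP and 7.32 ± 3.36 in diabetic ulcers, a log2 change of 1.33 (95% interval 0.49 to 2.18) with an adjusted p of 0.713. Cxcl1 had 9.23 ± 4.49 and 1.79 ± 0.446 FPKM, a log2 change of 1.78 (95% interval 0.37 to 3.20) with an adjusted p of 0.713. Cxcl16 had 26.4 ± 3.02 and 17.7 ± 3.25 FPKM, a log2 change of 0.56 (SE 0.29, adjusted p = 0.713). For these 3 genes each PRP library lay above each diabetic library, beside 5.79% of all features with such a gap in that direction and 5.55% in the other.

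The other 7 genes overlapped between PRP and diabetic ulcers. Cxcl2 had a log2 change of 2.47 (SE 1.62, adjusted p = 0.725), and it was 0.68 without PRP replicate 2. Cxcl12 had a log2 change of 0.46 (95% interval -0.51 to 1.43), with 86.7 ± 17.3 FPKM in PRP ulcers. The interval for Cxcl14 was -1.04 to 1.01 around an estimate of -0.02, and that for Ackr3 was -1.41 to 1.41 around 0.00. Cxcl9 had a log2 change of 0.23 (SE 0.24), Cxcr3 of 0.34 (SE 0.23) and Cxcl10 of -0.08 (95% interval -1.06 to 0.90).

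PRP-treated diabetic ulcers were also set beside non-diabetic ulcers. This comparison shares libraries with both others. None of the 10 genes passed, beside 0.00641% of all features, and 5 of the 10 had an unadjusted p under 0.05, beside 20.4%. The 1 feature that passed was AC105648.6, a snoRNA that was named after its values were seen. The groups did not overlap for Cxcl9, Cxcl10, Cxcl12 and Ackr3, which were lower in PRP ulcers, and for Cxcl14, which was higher, beside 29.4% of all features (20.4% lower and 8.92% higher). The log2 changes were -0.84 for Cxcl9 (adjusted p = 0.155), -0.91 for Cxcl10 (adjusted p = 0.273), -1.30 for Cxcl12 (adjusted p = 0.175), -1.66 for Ackr3 (adjusted p = 0.199) and 1.42 for Cxcl14 (adjusted p = 0.169). Cxcr4 had a log2 change of -0.10 (95% interval -0.94 to 0.74), and those of Cxcl1, Cxcl2, Cxcl16 and Cxcr3 were -1.72, -1.87, -0.31 and -0.10. Without non-diabetic replicate 2, Cxcl1 and Cxcl14 passed. The median of the 10 genes was -0.87, beside -0.04 over all features.

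For Cxcr4 the change was thus -1.43 between diabetic and non-diabetic, 1.33 between PRP and diabetic and -0.10 between PRP and non-diabetic ulcers. For its ligand Cxcl12 the same 3 values were -1.76, 0.46 and -1.30, and for Ackr3 they were -1.66, 0.00 and -1.66. For Cxcl1 they were -3.50, 1.78 and -1.72. The differences among these genes in the size of the PRP change were not tested.

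Of the other CXC family genes, 9 were tested, and 0 of the 9 passed in any of the 3 comparisons in the main fit. Between diabetic and non-diabetic ulcers, Cxcl3, Cxcl6 and Cxcr2 passed without non-diabetic replicate 2, and Pf4 and Ackr1 without diabetic replicate 1. Cxcl6 and Pf4 passed there with sample weights. Between PRP and non-diabetic ulcers, Cxcl6 passed without non-diabetic replicate 2, and Cxcl6, Cxcr5 and Cxcr6 with sample weights. In diabetic against non-diabetic ulcers all 9 had a log2 change below 0, with a median of -1.12. Pf4, a chemokine stored in platelets, was at 43.3, 46.4 and 44.9 FPKM in non-diabetic, 36.1, 4.31 and 12.4 in diabetic and 36.0, 23.2 and 33.8 in PRP libraries (log2 change -1.73 between diabetic and non-diabetic, adjusted p = 0.0811). Every non-diabetic library lay above the other 6 for Pf4. The 6 platelet markers, which include Pf4 and Ppbp, summed to 45.5 to 48.5 FPKM in non-diabetic, 4.97 to 36.9 in diabetic and 24.6 to 36.8 in PRP libraries. Pf4 alone made up most of this sum in every library, so the sum mainly repeats the level of Pf4. Of these 6, 2 were tested and 0 passed.

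Cxcl13, which attracts B cells through Cxcr5, was at 31.4, 19.8 and 25.0 FPKM in non-diabetic, 22.7, 3.47 and 15.1 in diabetic and 48.6, 72.8 and 22.0 in PRP libraries. PRP replicates 1 and 2 held the highest values, and its log2 change between PRP and diabetic ulcers was 1.87 (SE 0.62, adjusted p = 0.713). Cxcr5 lay between 0.320 and 1.14 FPKM. Ackr1, a scavenger of many chemokines on venules and red cells, was at 10.9, 9.16 and 18.0 FPKM in non-diabetic, 18.8, 5.95 and 5.15 in diabetic and 6.56, 8.23 and 7.59 in PRP libraries, with overlap among the groups. Cxcl17, a mucosal chemokine, was at or below 0.164 FPKM in every library and was not tested.

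Genes that act before, beside and after these chemokines were read from 4 lists and 4 single genes. None of the 4 lists had a member that rose in diabetic ulcers. The counts of called members below stand beside 7.16% of all features called lower and 1.79% called higher. Over the 4 CXC genes and the genes given here with values, 22 calls were recomputed, and 0 of the 22 held when any 1 of the 6 libraries that ended the CXC calls was left out. The calls of genes given here by name alone were not part of that count. NF-kB and IL-17 signals drive Cxcl1 and Cxcl2, but not every gene in the list of NF-kB and IL-17 response genes does so. In that list 5 of 20 fell in diabetic against non-diabetic ulcers, beside 7.16% of all features. Its median log2 change was -1.27. Il17ra, a subunit of the IL-17 receptor, had 40.7 ± 11.3 FPKM in non-diabetic, 14.5 ± 2.42 in diabetic and 18.0 ± 0.941 in PRP ulcers (log2 change -1.40 between the first pair, adjusted p = 0.0308). Nfkbiz, an inducible cofactor of NF-kB, had 34.6 ± 18.8, 6.91 ± 1.89 and 14.4 ± 7.17 FPKM (log2 change -2.04, adjusted p = 0.0383). Icam1, an adhesion molecule for leukocytes, and Nfkb1, a subunit of NF-kB, fell by 1.63 and 1.02 on the log2 scale, and Bcl3 was the fifth. The other 15 did not pass. Il1b, a cytokine that activates NF-kB and was not called, was at 36.7, 3.77 and 178 FPKM in non-diabetic, 3.14, 1.28 and 2.57 in diabetic and 4.74, 80.9 and 2.61 in PRP libraries. Like Cxcl2, it was highest in non-diabetic replicate 3 and PRP replicate 2.

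Genes that receive or follow the interferon gamma signal, the inducer of Cxcl9 and Cxcl10, did not all pass. Among those that did not were Gbp5, a GTPase of host defence (log2 change -0.17, adjusted p = 0.593), Il18, a cytokine that promotes interferon gamma (-0.20, adjusted p = 0.503), and Nlrc5, a transactivator of MHC class I genes (-0.37, adjusted p = 0.157). Others that did not pass lay closer to the threshold, such as Gbp2 (log2 change -1.09, adjusted p = 0.0559) and Tap1 (-0.73, adjusted p = 0.0516). The 4 genes given next were the ones of highest mean among those that passed, so they do not stand for the whole group. Jak1, a kinase of the interferon gamma receptor, had 76.7 ± 10.1 FPKM in non-diabetic and 38.3 ± 12.1 in diabetic ulcers (log2 change -1.02, adjusted p = 0.0380). Jak2, its partner kinase, had 69.2 ± 32.8 and 19.0 ± 3.68 FPKM (log2 change -1.70, adjusted p = 0.0370). Psmb8, an immunoproteasome subunit, had 42.8 ± 3.16 and 19.0 ± 6.90 FPKM (log2 change -1.20, adjusted p = 0.0370). Ifngr2, a subunit of that receptor, had 15.1 ± 5.09 and 5.14 ± 0.937 FPKM (log2 change -1.35, adjusted p = 0.0308).

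Of 21 tested genes of chemokine receptor signalling, 10 fell, beside 7.16% of all features, and the median log2 change was -0.98. Gnai2, the inhibitory G protein subunit of leukocyte chemotaxis, had 119 ± 26.2 FPKM in non-diabetic, 49.4 ± 9.87 in diabetic and 61.6 ± 7.85 in PRP ulcers (log2 change -1.24, adjusted p = 0.0308). Arrb1, an arrestin that ends receptor signalling, fell by 1.19 on the log2 scale (adjusted p = 0.0428). Prex1, a Rac exchange factor of neutrophils, fell by 1.35 (adjusted p = 0.0415), and Grk6, a receptor kinase, fell by 0.83 (adjusted p = 0.0444). The other genes were Arrb2, Gng2, Grk3, Pik3cg, Pik3r5 and Vav1. Of the macrophage markers 6 of 10 fell in the same comparison, and of the T and NK cell markers 2 of 9, beside 7.16% of all features. Their pattern over the libraries was not compared with those of the NF-kB and IL-17 list, the interferon gamma genes or this list. The part of these cells in the values was not tested.

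In the list of chemokine cleavage, shedding and retention, 4 of 16 fell, beside 7.16% of all features, with a median log2 change of -0.58. Mmp14, a membrane protease, had 499 ± 61.3 FPKM in non-diabetic, 154 ± 79.4 in diabetic and 295 ± 117 in PRP ulcers (log2 change -1.87, adjusted p = 0.0470). Adam17, a sheddase of membrane proteins, had 47.1 ± 9.08, 26.0 ± 4.90 and 33.5 ± 1.20 FPKM (log2 change -0.83, adjusted p = 0.0390). Ext1 and Ext2, which build the heparan sulfate chains that hold chemokines in tissue, fell by 1.27 and 1.05 on the log2 scale. Mmp12, a macrophage elastase, was at 203, 122 and 160 FPKM in PRP libraries and at 73.6, 3.55 and 20.3 in diabetic libraries, and its log2 change of 3.04 between them (SE 1.08) did not pass (adjusted p = 0.713). Among 10 hypoxia genes and partners of the CXCL12 axis, 2 fell, beside 7.16% of all features, with a median log2 change of -0.69. These were Cd74, a receptor of MIF that pairs with Cxcr4 (521 ± 50.8 FPKM in non-diabetic, 131 ± 68.1 in diabetic, log2 change -2.16, adjusted p = 0.0361), and Hif1a, a hypoxia factor that induces Cxcl12 (128 ± 71.6 and 35.1 ± 4.80 FPKM, log2 change -1.66, adjusted p = 0.0497). Itgb1, an integrin subunit, had a log2 change of -0.92 (adjusted p = 0.0573), and Kitlg, a stem cell factor, had one of 0.047 (adjusted p = 0.852). Of the 10 genes, 6 had a log2 change below 0 and 4 had one above 0. Whether the fall of Cd74 bears on the CXCL12 axis was not tested.

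In PRP against diabetic ulcers 0 genes of the 4 lists passed, and the median log2 changes were 0.47 for NF-kB and IL-17 genes, 0.36 for receptor signalling, 0.25 for cleavage, shedding and retention and -0.01 for hypoxia and CXCL12 partners. The members of highest mean in the 4 lists had adjusted p of 0.713 to 0.944. Their log2 changes were 0.31 for Nfkbia, 1.89 for Il1b, 0.30 for Il17ra and 0.90 for Nfkbiz in the first list. In the second they were 0.27 for Gnb1, 0.32 for Gnai2, 0.050 for Gnai3 and 0.077 for Rgs2. They were 0.81 for Mmp2, 1.03 for Mmp14, 0.085 for Sdc1 and 3.04 for Mmp12 in the third, and 0.77 for Cd74, 0.24 for Itgb1, 0.52 for Hif1a and -0.39 for Kitlg in the fourth. Of the interferon gamma genes, Jak1 had a log2 change of 0.24, Ifngr1 of 0.22, Jak2 of 0.54 and Psmb8 of 0.39. In PRP against non-diabetic ulcers 0 genes passed, and the medians in the same order were -0.70, -0.55, -0.32 and -0.48. The same genes of the 4 lists had log2 changes of -1.41 (Il1b) to 3.19 (Mmp12) there, with adjusted p of 0.154 to 0.707.

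For each gene, the 3 named features with the most similar pattern over the 9 libraries were taken from 8368 candidates by Pearson r of log2(FPKM + 1). This is a description over libraries whose cell marker sums differed widely. The part of cell makeup in the r values was not tested. Cxcl1 was closest to Nfkb1 (r = 0.981), Shisa5 and Il4r. Cxcl2 was closest to Il1b (r = 0.982), Ifit1bl and Slpi. Cxcl9 was closest to Fam171a1 (r = 0.989), Tie1 and Ano6, and Cxcl10 to Scamp1 (r = 0.957), Vps29 and Ifit2. Cxcl12 was closest to Me2 (r = 0.978), Sap30l and Pltp, and Ackr3 to Tek (r = 0.983), Lrch3 and Mtmr11. Cxcr4 was closest to Bcl2a1 (r = 0.975), Il7r and Clec7a, and Cxcr3 to Psmb9 (r = 0.946), Gimap4 and Lmna. Cxcl14 was closest to Fgfr3 (r = 0.994), Nlrp10 and Eppk1, and Cxcl16 to Itgax (r = 0.979), Vasp and Serpine2.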

How the data were processed

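Per the labels, ulcer RNA was purified on RNeasy Plus columns and made into strand-preserving libraries (NEBNext Ultra II Directional). Cutadapt, FastQC, HISAT2 and StringTie, without versions, and the mouse assembly GRCm39 are named in the submitters' processing notes, and mouse is the organism label. The deposited table of FPKM nevertheless holds 30560 rat gene identifiers, as the design text states rats. Coordinates are those of this table, its rat build being unnamed in the labels, and no sequence was used. The authors deposited FPKM per gene for 9 libraries. The raw counts of 249 lncRNA genes that the authors deposited for the same libraries served only to set relative depth, over genes of at least 20 counts in every library.

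FPKM values of 1 gene name were summed. Features that reached 0.5 FPKM in 3 or more libraries were fitted as log2(FPKM + 1) with limma-trend (limma 3.58.1, R 4.3.3), with group as the term and the 3 groups in 1 fit. A feature was called at a Benjamini-Hochberg adjusted p under 0.05 over all 15600 features, two-sided, and only called features are said to have risen or fallen. The fit was tested on simulated data whose features varied independently, with changes placed in the less variable features only. That test does not bear on how far the calls hold in these libraries. The 10 genes and all lists were chosen with earlier results of these data known. The other CXC family genes are each given with a level. Of each further companion list up to 4 genes per comparison are given with values, called genes of highest mean FPKM first and then other tested genes of highest mean. Ifng, Gbp2, Gbp5, Il18, Nlrc5, Tap1, Cd3d, Cd3e, Cd3g and the called genes given by name alone were added after their values were seen. Similar genes had a name and a mean of at least 5 FPKM. The alternatives were a pseudocount of 0.1, no filter, median-of-ratios size factors, sample weights, a fit of the groups compared alone, a replicate block, unsummed features and leaving out libraries. The result of 1 companion list is not reported here.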

Additional observations from a re-analysis of the deposited data

How the results depend on the processing

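All 10 CXC genes kept their direction between diabetic and non-diabetic ulcers under all 17 alternatives, 9 lower and 1 higher. The number of these genes called did not hold. From 4 it went to 0 with no filter on low values, 0 with only the 6 libraries compared in the fit, 0 when replicates 1 and 3 of the non-diabetic group were dropped together, 1 with median-of-ratios size factors and 7 with sample weights, and it ranged from 0 to 7 when single libraries were left out. The count over all features, 1396, became 0, 0, 0, 861 and 5607 under the same settings in that order, and ranged from 0 to 3501. The size factors split their 861 calls into 237 higher and 624 lower, and sample weights split theirs into 2716 and 2891, beside 279 and 1117. In PRP against diabetic ulcers 0 of the 10 genes were called under any alternative, and 1 feature of all was called with no filter and 1 with size factors. In PRP against non-diabetic ulcers sample weights gave 6474 features and 6 of the 10 genes, and without non-diabetic replicate 2 the counts were 714 and 2. Over single libraries left out, those counts ranged from 0 to 714 and from 0 to 2. The 1 feature became 2 with no filter, and 0 with only the 6 libraries compared or with that pair dropped. Sample weights gave non-diabetic replicate 1 a weight of 7.50 and PRP replicate 2 a weight of 2.96, and all others less than 1. The causes were not tested. Of 22 genes called between diabetic and non-diabetic ulcers and given with values (the 4 CXC genes and companion genes, not those given by name alone), the calls of 22 held with sample weights, 18 with a pseudocount of 0.1, 20 with unsummed features, 10 with size factors and 0 with no filter, with only the 6 libraries compared or with the non-diabetic pair dropped.

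With the replicate block, 1259 features and 4 of the 10 genes were called between diabetic and non-diabetic ulcers, where 17 of those 22 held, 0 between PRP and diabetic ulcers and 0 features between PRP and non-diabetic ulcers. The labels do not say whether the numbers pair the samples. Same-numbered libraries correlated at -0.407 to 0.351 in their deviations from the group means, and differently numbered ones at -0.439 to 0.552. These overlapping ranges cannot decide whether the samples are paired.

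Of 117 log2 changes of single genes, 93 never reversed. With the same pair of non-diabetic libraries dropped, those between diabetic and non-diabetic ulcers became 0.29 for Cxcl11 and 0.12 for Cxcr5, and those between PRP and non-diabetic ulcers became 0.60 for Cxcl2, 0.37 for Cxcl16, 0.44 for Cxcr4, 0.76 for Cxcl6, 1.01 for Cxcl3, 0.44 for Cxcr2, 0.34 for Cxcl11, 0.018 for Cxcr5, 0.26 for Nfkbia, 1.32 for Il1b and 0.14 for Gnai3. Between PRP and diabetic ulcers, Cxcl10 became 0.20 with a pseudocount of 0.1, Cxcl14 0.047 with size factors and 0.12 with sample weights, and sample weights gave 0.072 for Ackr1, -0.014 for Cxcl11 and -0.023 for Gnai3. Sample weights gave 0.033 for Cxcr3 between PRP and non-diabetic ulcers. Leaving out single libraries gave ranges across 0 between PRP and diabetic ulcers for Ackr1 (-0.47 to 0.37), Ackr3 (-0.43 to 0.77), Cxcl10 (-0.50 to 0.48), Cxcl11 (-0.26 to 0.55), Cxcl14 (-0.21 to 0.12), Gnai3 (-0.068 to 0.23), Nfkbia (-0.010 to 0.49), Rgs2 (-0.13 to 0.31) and Sdc1 (-0.29 to 0.30). The same was seen between PRP and non-diabetic ulcers for Cxcl3 (-2.49 to 0.021), Cxcr3 (-0.20 to 0.036) and Cxcr4 (-0.37 to 0.12), and between diabetic and non-diabetic ulcers for Kitlg (-0.037 to 0.14). The causes were not tested. Low genes such as Cxcr3 rest on few reads, and their number is not known from FPKM.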

Other observations

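The following ratios were chosen after their values were seen. The ratio of Ackr3 to Cxcr4, both in FPKM, was 2.89, 6.28 and 2.30 in non-diabetic, 6.63, 3.63 and 1.28 in diabetic and 0.917, 0.779 and 2.05 in PRP libraries. PRP replicates 1 and 2 were the 2 libraries with more Cxcr4 than Ackr3, and diabetic replicate 3 overlapped the PRP range. The ratio of Cxcl2 to Cxcl1 was 0.791, 0.493 and 2.87 in non-diabetic, 0.819, 0.259 and 0.0653 in diabetic and 0.610, 7.94 and 0.0882 in PRP libraries. PRP replicate 2 and PRP replicate 3 thus stood at the highest and second lowest ratio of the 9, although their Cxcl1 levels were 13.6 and 9.47 FPKM.

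Over the 10 marker lists, the list whose summed level ordered the 9 libraries most like a gene was also noted, as a count of library pairs in the opposite order out of 36. For Cxcl1 and Cxcr4 it was T and NK cell markers, with 2 pairs each. For Cxcl2 it was the same list with 5 pairs, against 12 for neutrophil markers. For Cxcl16 it was T and NK cell markers with 3 pairs, against 8 for macrophage markers. For Cxcl14 it was keratinocyte markers with 3 pairs and for Cxcl9 macrophage markers with 3 pairs. For Cxcl12 it was platelet markers, whose sum is mostly Pf4, with 3 pairs, against 14 for fibroblast markers. For Ackr3 endothelial and platelet markers had 4 pairs each. Cxcl10 and Cxcr3 had 7 pairs at the fewest, both with fibroblast markers.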
